A study of Mus musculus with 18 samples.

Results

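Macrophages grown from mouse bone marrow and lacking Wbp7 were compared after 4 h and after 2 h of LPS, the lipopolysaccharide of Gram-negative bacteria. Members were chosen by the array titles: the 3 arrays labelled Wbp7-/- with LPS for 4 h, and the 3 labelled Wbp7-/- with LPS for 2 h, paired by replicate number. They make up 6 of the 18 arrays of the series. KO stands for Wbp7-/-, and HET for the Wbp7+/- macrophages of the same design, which also have 3 arrays at 4 h, 3 at 2 h and 3 untreated. All groups share a background of 94% C57BL/6 and 6% 129/Ola, the medium conditioned by L929 cells, harvest on day 7 of differentiation and, where treated, 10 ug/ml of LPS. The labels do not say how the allele was deleted, nor the age and sex of the mice. The comparison asks how far the LPS response of KO macrophages moved on in the second interval of stimulation. The values are log2 signals from Affymetrix gene arrays, so a difference of 1 is a doubling of signal, and levels of different genes are not compared with each other.

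Wbp7, now Kmt2b, encodes a histone methyltransferase that puts methyl groups on lysine 4 of histone H3. LPS is bound by CD14 and the TLR4 receptor complex, which signals through MyD88 to NF-kB and through TRIF to IRF3. The first arm switches on early cytokine genes such as Tnf. The other leads to the transcription of interferon beta, which is secreted, binds its receptor and switches on a later set of antiviral genes. CD14 is held on the cell surface by a GPI anchor, a glycolipid whose first synthetic step needs Pigp.

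The KO arrays were close to each other. Within the 2 LPS groups of KO, the SD of the log2 difference between 2 arrays of a group lay between 0.175 and 0.26 over 19475 genes, and array medians of all 18 arrays lay between 8.05 and 8.13. HET replicate 1 stood apart from HET replicates 2 and 3, with SDs of up to 0.531 between arrays of an LPS group. It enters the KO comparison only through the shared estimate of spread. List counts without it, an alternative chosen after seeing the data, are given beside some of the lists. Kmt2b itself had log2 signals of 9.94, 10.21 and 10.09 in KO at 4 h, against 10.73, 10.42 and 10.66 in KO at 2 h, a difference of -0.52 (SE 0.14, limma adjusted p = 0.0284). Those levels were close to the HET ones (KO minus HET -0.09 at 4 h and -0.06 at 2 h). The probe set is not known to lie in the deleted part of the gene, so it does not check the labels. The call for Kmt2b was lost without KO replicate 1 or 3, without pairing and after centring each array on its median. Pigp had 8.77, 8.61 and 8.75 in KO at 4 h, against 8.79, 8.84 and 8.60 in KO at 2 h (difference -0.03, limma adjusted p = 0.897).

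A gene was called where limma's Benjamini-Hochberg adjusted p, over all 19475 genes and two-sided, was under 0.05. From 2 h to 4 h, 963 genes rose in KO macrophages (4.94%) and 1194 fell (6.13%). The rises were larger than the falls. Among the called genes 276 rose at least 2-fold and 55 fell at least 2-fold, with a median change of 0.68 for rises and -0.48 for falls. Of all calls 44.6% were rises. That split depended on the scaling, since it was 56.7% after centring arrays on their medians (1066 higher, 813 lower) and 50.8% after quantile normalization (1064 higher, 1031 lower). The median difference over all genes was -0.02. Leaving out a replicate of KO lowered the number of calls from 2157 to 690 without replicate 1, to 1368 without replicate 2 and to 783 without replicate 3. The number rose to 3539 without HET replicate 1, and it fell to 852 with no replicate block. The 3 arrays at 4 h lay above the 3 at 2 h for 1757 genes (9.02%) and below them for 3422 (17.6%).

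The 10 called genes with the largest rise in which each replicate pair rose increased by between 2.98 and 4.52 log2 units, and 9 of these rises were at least 8-fold. Of the gene lists, Iigp1 and Gbp4 belong to the interferon-induced GTPases and Tnfsf10 and Il6 to the cytokines, and the other genes are in none of them. Iigp1, a GTPase that attacks the vacuoles of intracellular parasites, had log2 signals of 11.44, 10.69 and 11.37 in KO at 4 h, against 6.62, 6.73 and 7.38 in KO at 2 h. The groups were far apart, and the rise was 4.26 (SE 0.331, limma adjusted p = 7.07e-06). Most of its response fell into this interval: Iigp1 was 0.82 above untreated KO macrophages at 2 h and 5.08 above them at 4 h. BC023105 had 11.23, 10.13 and 11.43 at 4 h, against 6.27, 5.78 and 7.18 at 2 h, a rise of 4.52 (SE 0.332, limma adjusted p = 7e-06). Tnfsf10, which encodes the death ligand TRAIL, had 12.02, 11.60 and 12.22 at 4 h, against 7.91, 7.64 and 9.40 at 2 h. Its rise was 3.63 (SE 0.276, limma adjusted p = 7e-06), with replicate 3 the highest at both times. Ifi208, of the p200 family that holds sensors of DNA, had 11.07, 10.83 and 11.58 at 4 h, against 6.90, 5.95 and 8.16 at 2 h (rise 4.16). Ifi206 (3.5) and Ifi213 (3.04) of the same family, Ifit3b (3.4), Gbp4 (3.77) and Gm4951 (3.72) followed. In most of these genes KO replicate 3 was the highest and replicate 2 the lowest array at 2 h. Several belong to families with near-identical copies (the p200, GBP, IFIT and immunity-related GTPase genes), whose probes can share signal, so the size of a rise in 1 copy is uncertain.

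**Figure D1:**
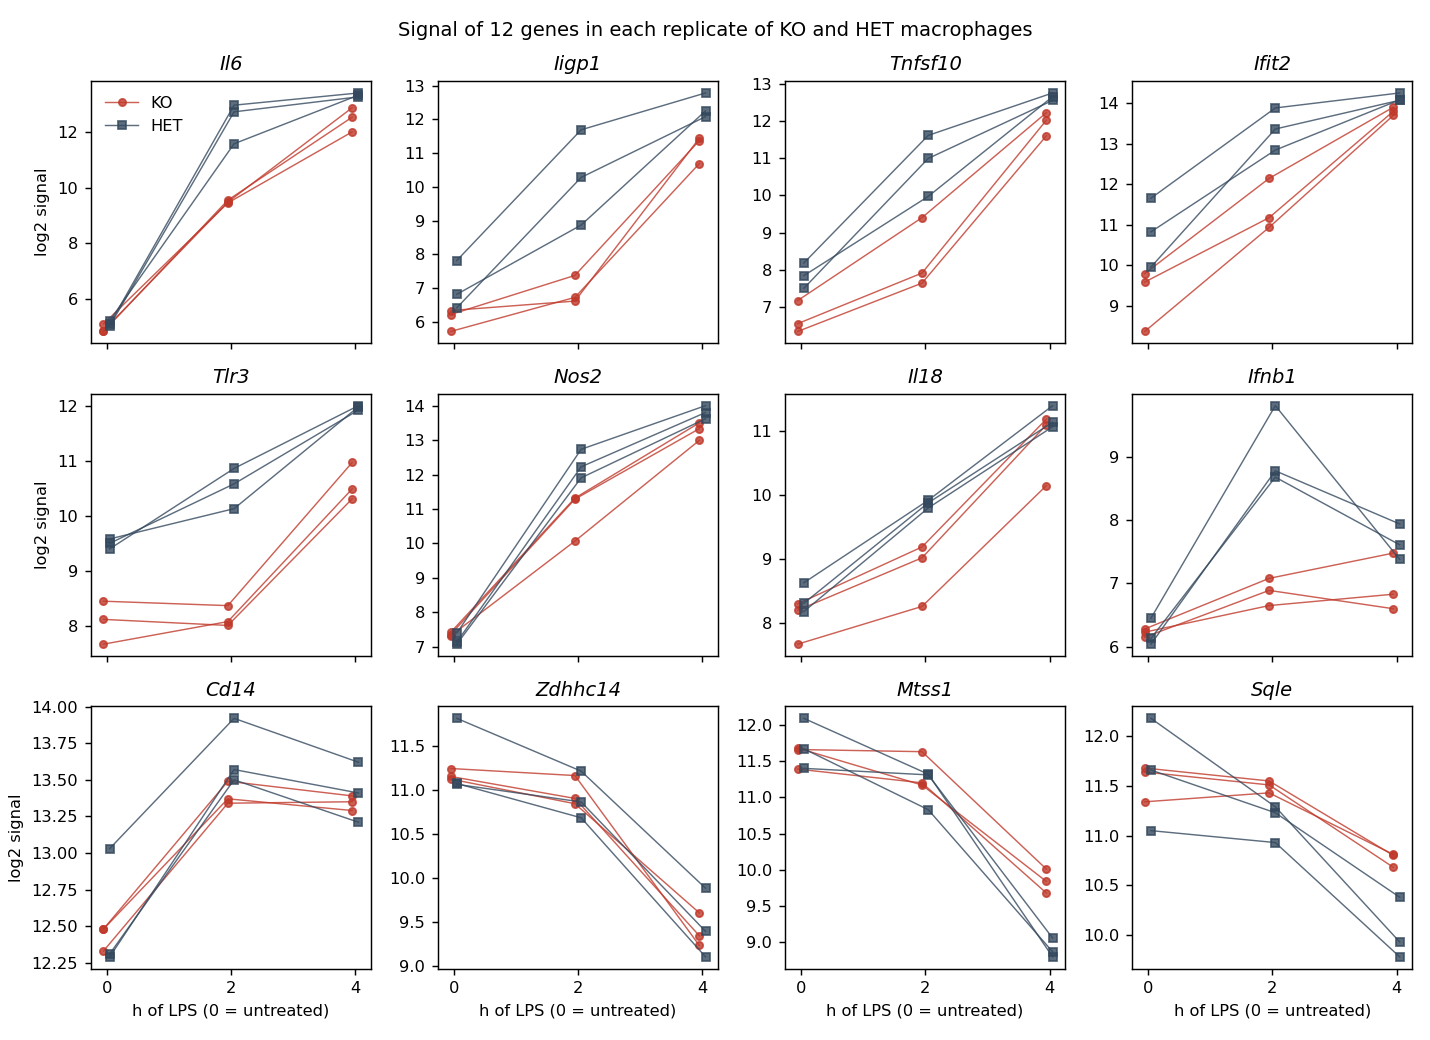
Log2 signal (vertical axis) of 12 genes against hours of LPS (0 is untreated), with 1 line per replicate in KO (red circles) and HET (blue squares). Iigp1 and Tlr3 in KO were little above their untreated level at 2 h and high at 4 h, while Cd14 was at its level already at 2 h and Zdhhc14, Mtss1 and Sqle fell mainly after 2 h.

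Ifnb1, which encodes interferon beta, did not pass the test in KO macrophages. It had log2 signals of 7.48, 6.60 and 6.83 in KO at 4 h, against 7.08, 6.89 and 6.65 in KO at 2 h. The arrays overlapped, and the difference was 0.10 (95% interval -0.41 to 0.6, limma adjusted p = 0.882). At 2 h Ifnb1 was 0.66 above untreated KO macrophages, and at 4 h 0.75 above them. These KO signals lay near the lower quartile of signals of the arrays (6.71 to 6.99), so a lack of change is uncertain. In HET macrophages Ifnb1 had 7.38, 7.94 and 7.61 at 4 h, against 9.81, 8.78 and 8.68 at 2 h, a fall of 1.44 on the log2 scale (SE 0.234, limma adjusted p = 0.000926). The change in KO minus that in HET was 1.54 (95% interval 0.82 to 2.26), which did not pass the adjustment (limma adjusted p = 0.178).

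Of 43 measured genes of the antiviral interferon response, 42 rose in KO macrophages between 2 h and 4 h and none fell, beside 4.94% of all genes. The median difference of the 43 was 1.30, against -0.02 over all genes. In 41 of the 43 the arrays at 4 h lay above those at 2 h, beside 9.02% of all genes. Only Ifitm3, which blocks the entry of viruses into cells, did not pass (0.20, limma adjusted p = 0.0511). It had 13.93, 14.01 and 13.97 at 4 h, against 13.73, 13.76 and 13.83 at 2 h, near the top of the array's range at both times. Ifit2, which binds viral RNA and stops its translation, had 13.81, 13.71 and 13.91 at 4 h, against 11.18, 10.94 and 12.15 at 2 h. Its rise was 2.38 (SE 0.291, limma adjusted p = 0.000147). The 3 arrays at 4 h, near the top of the array's range, were much closer together than those at 2 h. Tlr3, the receptor for double-stranded RNA, had 10.97, 10.31 and 10.49 at 4 h, against 8.37, 8.01 and 8.08 at 2 h. At 2 h Tlr3 was only 0.07 above untreated KO macrophages, so that its rise of 2.44 (SE 0.151, limma adjusted p = 4.79e-06) took place after that time. The Schlafen genes Slfn1 (2.85) and Slfn4 (2.5) also stood among the 4 largest rises of the list. Without 1 KO replicate, between 35 and 38 members were called, and 32 with no replicate block.

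All 8 measured GTPases of the GBP and immunity-related families rose, beside 4.94% of all genes, with a median of 2.11. In each of the 8 the arrays at 4 h lay above those at 2 h, beside 9.02% of all genes. The GTPases gather on the membranes that enclose bacteria and parasites in the cell. Gbp9 had 11.16, 10.15 and 11.45 at 4 h, against 8.10, 7.53 and 8.94 at 2 h (rise 2.73, SE 0.225, limma adjusted p = 9.75e-06). Gbp7 had 12.72, 12.56 and 12.80 at 4 h, against 10.16, 9.84 and 10.84 at 2 h (rise 2.41, SE 0.168, limma adjusted p = 4.79e-06). The mean log2 signal of the 8 genes lay between 11.09 and 11.80 in the KO arrays at 4 h, against 8.75 to 9.58 in those at 2 h.

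**Figure D2:**
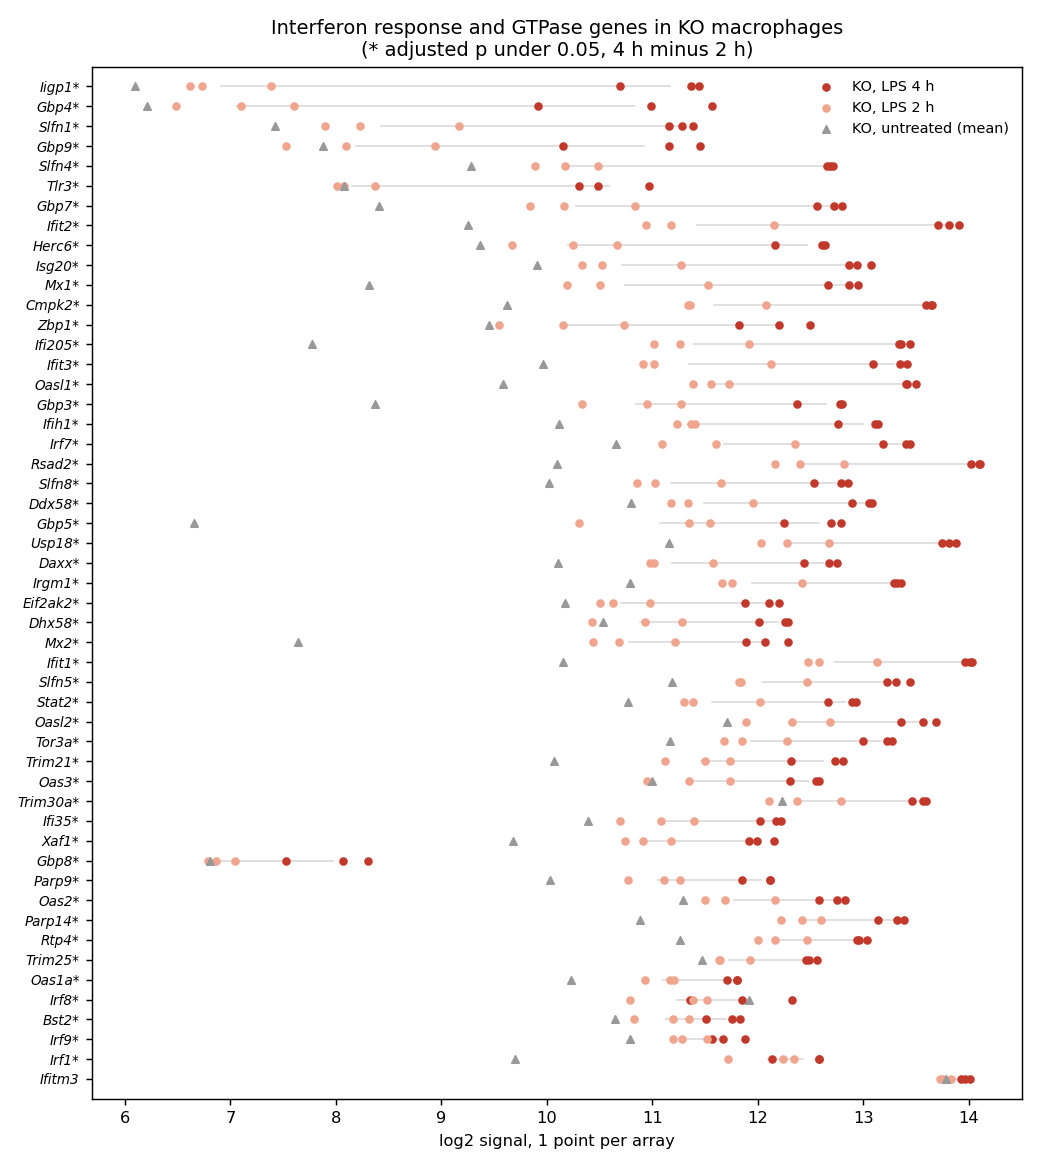
Log2 signal (horizontal axis) of each measured gene of the interferon response and GTPase lists in the KO arrays, with dark red points for 4 h, light red points for 2 h and grey triangles for the mean of the untreated KO arrays. Genes run from the largest rise at the top to the smallest at the bottom, and an asterisk marks an adjusted p under 0.05. All but Ifitm3 carry one, and the points of the 2 times overlap in Irf8 and Irf1 alone.

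Promoters of these genes were read from the RefSeq promoter table (build GRCm38.p6), which holds 250 bases before and 50 after each start. They were searched on both strands for GAAA, any 2 bases and GAAA again, the core letters of an element known from promoters that respond to interferon. Of 51 measured members of both lists 37 had a promoter in the table, and 20 of these (54.1%) held the letters. Among all genes tested with a promoter the share was 3.88% of 15456. It was 12.5% of 766 for the genes that rose in KO, 25.2% of 214 for those that rose at least 2-fold, and 2.03% of 987 for those that fell. For GGGA, any 2 bases and TTCC, a form of the NF-kB site (no single stretch can match both motifs), the shares were 3.66% in genes that rose, 1.52% in genes that fell and 1.58% in all genes tested. This motif, too, was more frequent in the promoters of genes that rose at least 2-fold (5.61% of 214) and of both lists (13.5% of 37). The 4 windows printed here are those of called members with large rises that hold the first motif. They are shown 5′ to 3′ on the strand of the gene, and capitals mark the match on either strand. Gbp7 lies at chr3:142530086-142530385 on the plus strand, Ifi205 at chr1:174031706-174032005 on the minus strand, Ifit3 at chr19:34583279-34583578 on the plus strand and Gbp3 at chr3:142559794-142560093 on the plus strand.
Gbp7: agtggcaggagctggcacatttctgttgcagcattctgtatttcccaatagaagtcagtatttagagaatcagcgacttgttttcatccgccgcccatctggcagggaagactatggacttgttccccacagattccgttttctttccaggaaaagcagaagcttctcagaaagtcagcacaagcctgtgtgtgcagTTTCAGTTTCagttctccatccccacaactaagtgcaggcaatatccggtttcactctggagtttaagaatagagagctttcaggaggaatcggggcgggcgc
Ifi205: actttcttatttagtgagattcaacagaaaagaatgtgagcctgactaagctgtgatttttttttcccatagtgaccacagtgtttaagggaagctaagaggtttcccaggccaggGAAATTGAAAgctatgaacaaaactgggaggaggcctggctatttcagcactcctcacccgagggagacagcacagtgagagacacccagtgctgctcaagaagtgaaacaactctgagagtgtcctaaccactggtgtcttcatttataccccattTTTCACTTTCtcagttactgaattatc
Ifit3: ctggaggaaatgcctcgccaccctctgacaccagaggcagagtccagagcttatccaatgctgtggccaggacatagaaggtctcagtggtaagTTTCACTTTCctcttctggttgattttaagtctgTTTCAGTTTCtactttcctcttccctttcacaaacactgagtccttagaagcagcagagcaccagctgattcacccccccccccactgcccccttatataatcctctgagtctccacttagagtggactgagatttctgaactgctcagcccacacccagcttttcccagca
Gbp3: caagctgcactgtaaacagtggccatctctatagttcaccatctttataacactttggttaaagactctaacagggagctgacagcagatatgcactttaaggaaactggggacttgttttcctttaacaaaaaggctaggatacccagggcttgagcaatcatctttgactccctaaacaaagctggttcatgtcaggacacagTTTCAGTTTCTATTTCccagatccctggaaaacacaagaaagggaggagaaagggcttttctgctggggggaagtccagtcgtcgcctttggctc
Gbp7 held 1 match, which starts 53 bases before the gene's start, and Gbp3 held 2 overlapping matches, the first of which starts 45 bases before it. Ifi205 (rise 1.98) and Ifit3 (rise 1.93) held 2 separate matches each. A match is a stretch of letters and was not tested as a binding site in these cells.

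Interleukins and other secreted factors made up the next group. Of 29 measured cytokines and growth factors 13 rose (44.8%, beside 4.94% of all genes), with a median difference of 0.55. The 2 that fell (6.9%) were a share near the 6.13% of all genes. Il6, the fever and acute phase cytokine, had log2 signals of 12.89, 12.02 and 12.55 in KO at 4 h, against 9.49, 9.46 and 9.56 in KO at 2 h. The arrays at 2 h agreed closely, and the rise was 2.98 (SE 0.254, limma adjusted p = 1.21e-05). Il6 was already 4.57 above untreated KO macrophages at 2 h, and 7.55 above them at 4 h. Il18, a cytokine released after cleavage by caspase 1, had 11.10, 10.15 and 11.19 at 4 h, against 9.02, 8.26 and 9.19 at 2 h. Its 3 pairs rose by 2.08, 1.88 and 2.00, which gave a rise of 1.99 (SE 0.0897, limma adjusted p = 2.54e-07), although the levels of replicate 2 were lower at both times. Il15, which sustains natural killer cells, had 12.48, 12.05 and 12.68 at 4 h, against 10.63, 9.78 and 10.96 at 2 h (rise 1.94, limma adjusted p = 7e-06). Not passing were Il10, the anti-inflammatory cytokine (0.69, limma adjusted p = 0.411), and Il12b, a subunit of interleukins 12 and 23 (0.68, limma adjusted p = 0.25). Il12b had 13.33, 11.99 and 12.36 at 4 h, against 12.74, 11.31 and 11.59 at 2 h. Tnf, singled out after its values were seen, had 14.05, 13.89 and 13.90 at 4 h, against 14.05, 13.79 and 13.91 at 2 h (difference 0.03). These signals lay near the top of the array's range at both times (highest value 14.92), so a further rise might not show.

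Among 23 measured chemokines 6 rose (26.1%, beside 4.94% of all genes) and none fell, with a median difference of 0.32. Without 1 KO replicate 4 to 5 rose, and with no replicate block 3. Without HET replicate 1, 8 rose and 2 fell. Those that rose most attract monocytes and T cells. Cxcl9 had 12.80, 11.08 and 12.42 at 4 h, against 10.19, 8.61 and 10.06 at 2 h (rise 2.48, SE 0.29, limma adjusted p = 0.000104). Ccl12 rose by 2.59, Cxcl11 by 1.6 and Ccl8 by 1.07, the last of which was not called without KO replicate 1 or 3. Ccl17 had 12.15, 8.92 and 11.92 at 4 h, against 10.69, 8.21 and 10.49 at 2 h. Ccl22 had 11.32, 8.98 and 11.03 at 4 h, against 9.79, 7.81 and 10.27 at 2 h. Replicate 2 was the low array at both times in both genes, and neither passed (1.2 and 1.15, limma adjusted p = 0.241 and 0.215).

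Effector genes of activated macrophages also went on rising. Of 24 such genes 13 rose (54.2%, beside 4.94% of all genes) and none fell, with a median of 0.83. Without 1 KO replicate 7 to 9 rose, with no replicate block 6, and without HET replicate 1 15. Nos2, the inducible nitric oxide synthase, averaged 13.28 ± 0.26 in KO at 4 h and 10.89 ± 0.714 in KO at 2 h (SD, n = 3 arrays each), with replicate 2 the lowest at both times. Its rise was 2.39 (SE 0.18, limma adjusted p = 7e-06), after 3.54 above untreated KO macrophages at 2 h. Cfb, complement factor B, rose by 2.75, Cp, the copper protein ceruloplasmin, by 2.51 and Hdc, the enzyme that makes histamine, by 1.83. Lcn2, which withholds iron from bacteria, averaged 12.62 ± 0.379 at 4 h and 11.56 ± 0.346 at 2 h (SD, n = 3 arrays each, difference 1.05, limma adjusted p = 0.0629). Of 13 genes of MHC class I presentation and the immunoproteasome, 11 rose (84.6%, beside 4.94% of all genes), with a median of 0.69. Nlrc5, the transactivator of class I genes, had 12.12, 11.83 and 12.02 at 4 h, against 9.88, 9.61 and 10.38 at 2 h (rise 2.04, SE 0.169, limma adjusted p = 1.01e-05). The peptide transporter gene Tap1 rose by 1.09, and the immunoproteasome genes Psmb9 and Psmb10 by 1.06 each. B2m, the light chain of class I, was at 0.14 (limma adjusted p = 0.19). In the list of 8 genes of class II and costimulation, 1 rose (12.5%, beside 4.94% of all genes). This was Cd86, a ligand for CD28 on T cells (1.04, limma adjusted p = 0.00017), which was not called with no replicate block. H2-Ab1 and Cd74 of class II did not pass (0.26 and 0.41).

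Cd14, the surface receptor that binds LPS, did not pass the test. It had 13.39, 13.35 and 13.29 in KO at 4 h, against 13.49, 13.34 and 13.37 in KO at 2 h (difference -0.06, 95% interval -0.25 to 0.13). Cd14 stood 0.97 above untreated KO macrophages at 2 h and 0.92 at 4 h. Of 17 genes of LPS sensing and signalling 4 rose (23.5%, beside 4.94% of all genes) and none fell: Peli1, a ubiquitin ligase of this pathway (0.73), the adaptor Myd88 (0.61), Irak3, which restrains it (0.51), and the kinase Tbk1 (0.5). Calls for Tbk1 and Irak3 were lost without KO replicate 1 or 3. The kinase genes Ikbke (0.36) and Map3k8 (0.34) of this list did not pass. None of 14 NF-kB subunits and inhibitors passed in limma (2 had an unadjusted p under 0.05, and 1 was called lower without HET replicate 1), and the largest differences were -0.33 in Bcl3 and -0.30 in Relb. Among 28 immediate-early and other induced transcription factors, 6 rose (21.4%, beside 4.94% of all genes) and 2 fell (7.14%, near the 6.13% of all genes). Without 1 KO replicate 3 to 5 rose, and without HET replicate 1 8 rose. Batf2, which partners IRF1 in macrophages, rose by 2.02, Mafk by 0.95 and Jun by 0.71, the last of which was not called without KO replicate 1 or 3. The rise of Jun was a partial return, since it stayed below its untreated level (-1.44 at 2 h and -0.73 at 4 h against untreated KO macrophages). Egr2 fell by 1.06, a call that was lost when any KO replicate was left out. Of 30 genes that dampen the response, 8 rose (26.7%, beside 4.94% of all genes) and 1 fell (3.33%, below the 6.13% of all genes). Without 1 KO replicate 4 to 6 rose, and without HET replicate 1 10 rose. Cd274, which encodes PD-L1, had 12.99, 12.88 and 13.05 at 4 h, against 10.77, 11.10 and 11.34 at 2 h (rise 1.91, SE 0.193, limma adjusted p = 3.39e-05). Socs1, which blocks interferon receptor signalling, rose by 1.44, Il1rn, the antagonist of interleukin 1, by 1.32, and Rgs2 by 1.32 (not called without KO replicate 3). Rgs2, too, only partly returned to its untreated level (-2.27 at 2 h and -0.96 at 4 h against untreated KO macrophages).

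Falls were smaller than rises. Zdhhc14, a palmitoyltransferase, had log2 signals of 9.23, 9.60 and 9.34 in KO at 4 h, against 11.16, 10.84 and 10.90 in KO at 2 h. The groups were far apart, and it fell by 1.58 (SE 0.114, limma adjusted p = 5.85e-06). Mtss1, which binds actin and bends membranes, had 9.68, 9.84 and 10.01 at 4 h, against 11.20, 11.17 and 11.63 at 2 h. It fell by 1.49 (SE 0.151, limma adjusted p = 3.47e-05). Both were near their untreated level at 2 h (-0.20 and -0.25 against untreated KO macrophages). Rab3il1, an exchange factor for Rab GTPases, fell most, by 1.76, with 8.93, 8.94 and 8.81 at 4 h, against 10.83, 10.60 and 10.52 at 2 h. Other falls among the 10 largest were those of Rasgrp3, an activator of Ras (-1.52), the transporter gene Slco4a1 (-1.49), the phosphodiesterase gene Pde3b (-1.48), the glycosyltransferase gene Gcnt1 (-1.45), Fbxo5, an inhibitor of the anaphase-promoting complex (-1.44), Nanos1 (-1.42) and Pald1 (-1.32). Pde3b was not called without KO replicate 1 or 3, nor Fbxo5 without KO replicate 1.

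Genes of cholesterol synthesis and uptake fell where they changed: 7 of 18 fell and none rose, beside 6.13% of all genes that fell, and the median was -0.43. All 18 differences were below 0. Sqle, squalene epoxidase, had 10.68, 10.81 and 10.80 at 4 h, against 11.51, 11.43 and 11.55 at 2 h, and fell by 0.73 (SE 0.157, limma adjusted p = 0.0086). Hmgcs1, at the start of the mevalonate route, fell by 0.88, Stard4, which carries cholesterol, by 0.82 and Msmo1 by 0.67. Without KO replicate 1 or 3 a single member was called, and 7 without replicate 2. Without HET replicate 1 the number of members called lower was 14. Of 12 LXR targets 1 fell (8.33%, near the 6.13% of all genes) and none rose. This was Srebf1, the regulator of fatty acid synthesis (-0.35, limma adjusted p = 0.0093), not called without KO replicate 1 or 3. Scd2 had 8.93, 9.28 and 9.70 at 4 h, against 10.55, 9.66 and 10.92 at 2 h (-1.07, limma adjusted p = 0.0745).

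Of 35 cell cycle genes 18 fell (51.4%, beside 6.13% of all genes) and 1 rose (2.86%, below the 4.94% of all genes), with a median of -0.43. In 31 of the 35 the 4 h arrays lay below the 2 h arrays, beside 17.6% of all genes. The number of calls varied with the arrays used: 2 to 5 members were called lower without 1 KO replicate, 1 with no replicate block and 26 without HET replicate 1. The median stayed between -0.45 and -0.39 without 1 KO replicate. E2f2, which drives entry into S phase, had 8.36, 8.74 and 8.47 at 4 h, against 9.44, 9.44 and 9.44 at 2 h. It fell by 0.92 (SE 0.121, limma adjusted p = 0.000284). Ccne2, cyclin E2, fell by 1.18 and Bub1b of the spindle checkpoint by 0.74, and neither was called when any KO replicate was left out. Ccnd2, cyclin D2, had 12.45, 11.44 and 12.47 at 4 h, against 11.57, 10.41 and 11.47 at 2 h, a rise of 0.97 (SE 0.182, limma adjusted p = 0.0038) that was not called without KO replicate 3.

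Of 25 nucleolar genes of ribosome biogenesis 7 fell (28%, beside 6.13% of all genes) and 1 rose in KO macrophages, with a median of -0.27. Gnl3, nucleostemin, had 9.15, 9.95 and 9.56 at 4 h, against 10.42, 10.49 and 10.51 at 2 h, and fell by 0.92 (SE 0.163, limma adjusted p = 0.00252). Tsr1, Rrs1 and Nop56, which act in ribosome assembly, fell by 0.78, 0.63 and 0.59. No member was called lower without KO replicate 1, 5 were without replicate 2 and 2 without replicate 3, while 14 were without HET replicate 1.

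**Figure D3:**
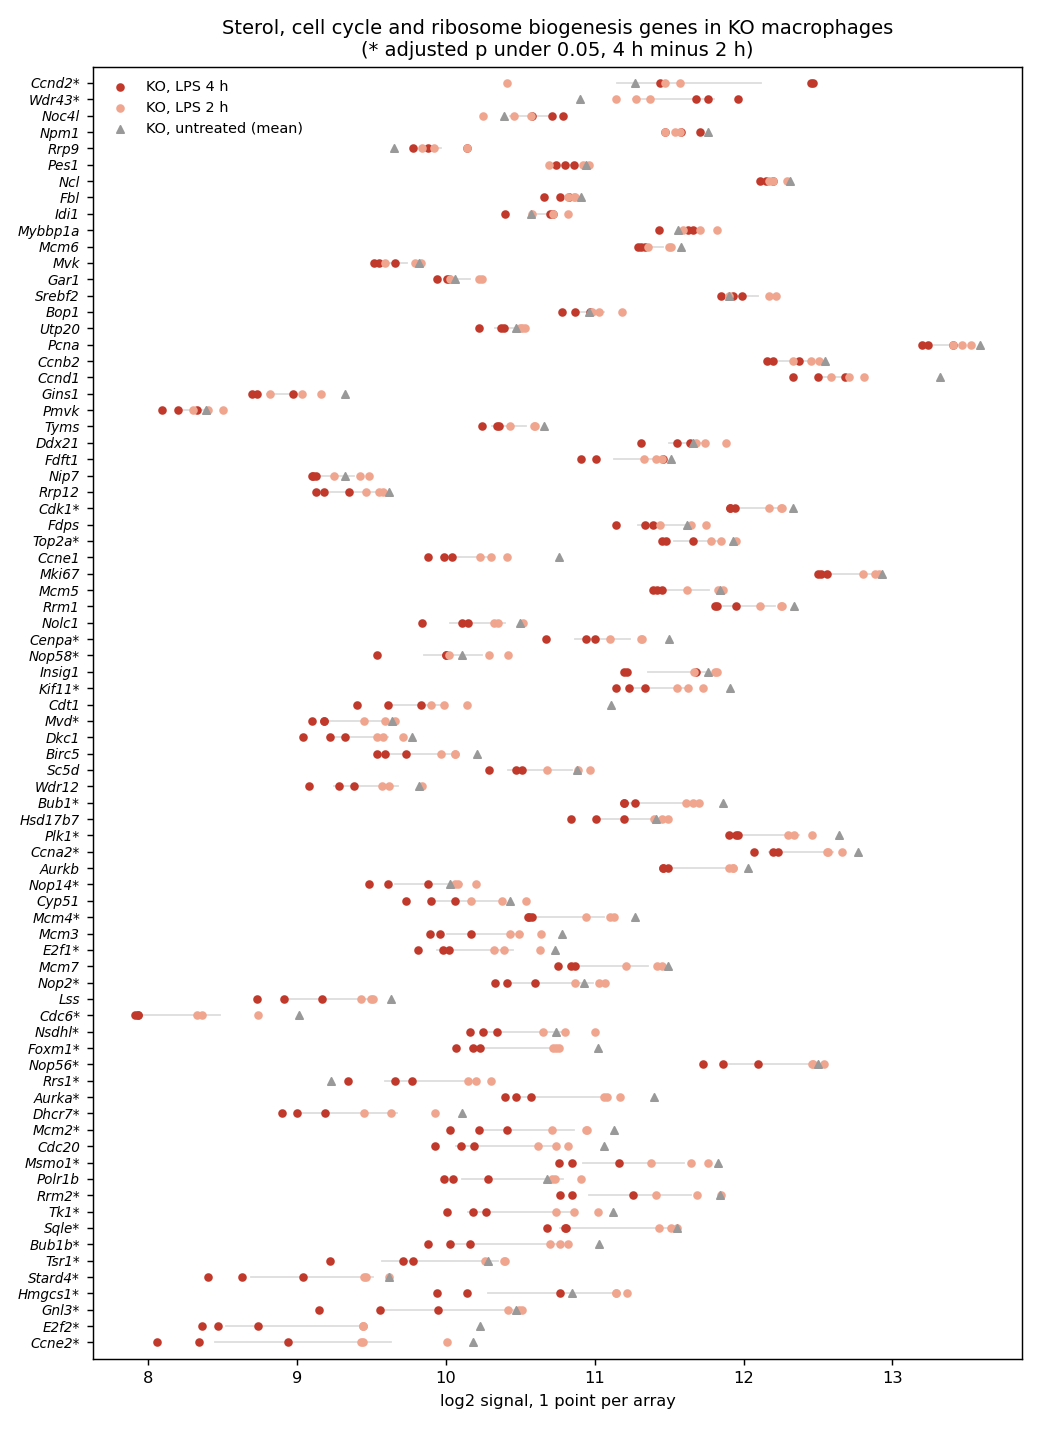
Log2 signal (horizontal axis) of each measured gene of the cholesterol, cell cycle and ribosome biogenesis lists in the KO arrays, with dark red points for 4 h, light red points for 2 h and grey triangles for the mean of the untreated KO arrays. Genes run from the one that rose most (Ccnd2) to the one that fell most (Ccne2), and an asterisk marks an adjusted p under 0.05.

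Other lists had between 1 and 7 called genes, to be read against the 4.94% of all genes that rose and the 6.13% that fell. Of 20 glycolysis and hypoxia genes 3 rose and none fell. Pfkfb3, which makes the activator of phosphofructokinase, had 11.60, 10.72 and 11.39 at 4 h, against 10.07, 9.19 and 9.75 at 2 h (rise 1.57, SE 0.227, limma adjusted p = 0.000603; not called with no replicate block). Hk2, hexokinase 2, rose by 0.79. Of 22 genes of the unfolded protein and integrated stress responses 2 fell, Herpud1 (-0.97), which had 11.44, 11.77 and 11.40 at 4 h, against 12.53, 12.42 and 12.55 at 2 h, and Dnajb9 (-0.53), and 4 were called lower without HET replicate 1. Gclc, which makes the precursor of glutathione, fell by 0.94 and was the 1 gene called of 15 in its list. Among 15 p53 targets and sestrins, Sesn1 (-1.31) and Gadd45a (-0.70) fell and Sesn3 rose (0.65). Each of these calls except that for Herpud1, Pfkfb3 and Hk2 was lost without 1 or more of the KO replicates. Of 18 receptors for chemokines and lipids 3 rose and 4 fell. P2ry14, a receptor for UDP sugars, had 9.82, 9.55 and 10.59 at 4 h, against 7.78, 7.67 and 8.09 at 2 h (rise 2.14, SE 0.184, limma adjusted p = 1.26e-05). The receptor genes Gpr183, Cxcr4 and S1pr1 fell by 1.31, 1.3 and 1.19, calls that were lost without KO replicate 1.

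Of 29 genes that build GPI anchors 1 rose and 1 fell. These shares, 3.45% each, are below those of all genes (4.94% and 6.13%), so the counts show nothing about the list. Pgap2, which remodels the lipid of the anchor, had 11.97, 11.79 and 11.90 at 4 h, against 11.30, 11.19 and 11.40 at 2 h (rise 0.59, limma adjusted p = 0.0025). Piga, the catalytic subunit of the first step, fell by 0.51 (limma adjusted p = 0.00402). Both calls were lost without KO replicate 1, and without HET replicate 1 there were 2 rises and 3 falls. Of 22 genes for GPI-anchored proteins 3 rose (13.6%, beside 4.94% of all genes). They were Ly6i (1.34), the prion protein gene Prnp (0.74) and Bst2 (0.57). Bst2 holds budding viruses on the cell and is also in the interferon list. Of 20 genes of the H3K4 methyltransferase complexes 3 fell (15%, beside 6.13% of all genes) and none rose. Those that fell were Kmt2b, Paxip1 (-0.50) and Men1 (-0.36). None of these 3 was called without KO replicate 1 or 3, and 6 members were called lower without HET replicate 1.

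Macrophage markers stayed high through the interval. The mean log2 signal of 19 macrophage identity genes lay between 12.91 and 13.09 in KO arrays at 4 h, against 12.92 to 13.17 at 2 h. Of the 19 fitted changes 14 were below 0 and 5 above it, with a median of -0.05. Mertk and Cx3cr1 did not pass. Over the alternatives they changed by -0.7 to -0.5 and by -0.64 to -0.54, and some alternatives called them lower. Fcgr1, a high-affinity Fc receptor that interferon is known to induce, rose (0.99). Trem2 fell (-0.21), a call lost without any 1 KO replicate (3 members were called lower without HET replicate 1). These shares, 5.26% each, are near those of all genes (4.94% and 6.13%), so the counts show nothing about the list. Of the markers of other cells 3 were called, all of them rises, to be read against the 4.94% of all genes that rose. None was among the 14 neutrophil markers (array means 8.39 to 8.67 at 4 h, against 8.21 to 8.55 at 2 h), the 12 lymphocyte markers (6.73 to 6.82, against 6.83 to 6.85), the 5 erythroid markers or the 8 mast cell markers. Of these lists' members 1, a lymphocyte marker, had an unadjusted p under 0.05 in limma. Of 10 dendritic cell markers Clec9a rose, with 7.82, 7.38 and 7.64 at 4 h, against 6.73, 6.65 and 6.66 at 2 h, while Flt3 and Xcr1 of the same list did not pass. Of 12 stromal markers Pdgfrb (1.08) and Dcn (0.52) rose, neither of them called without KO replicate 1, and array means were 7.69 to 8.45 at 4 h, against 7.63 to 8.23 at 2 h. The part of such cells in the results was not tested. In bulk samples a change in the share of a cell type and a change per cell cannot be told apart.

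The same interval in HET macrophages gave 1508 genes higher (7.74%) and 2142 lower (11%). The genotypes share no arrays here. Of the genes that rose in KO 782 also rose in HET, which is 81.2% of the KO rises and 51.9% of the HET rises. Of those that fell, 862 were shared (72.2% of the KO falls and 40.2% of the HET falls). Osbpl3 rose in KO and fell in HET, and Ypel5 fell in KO and rose in HET. Whether a call in 1 genotype differs from no call in the other needs the test of the difference. By that test, 2 genes of 19475 had a smaller rise in KO (0.0103%) and none had a larger one. At an unadjusted p under 0.05 there were 742 genes with a higher change in KO (3.81%) and 909 with a lower one (4.67%).

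**Figure D4:**
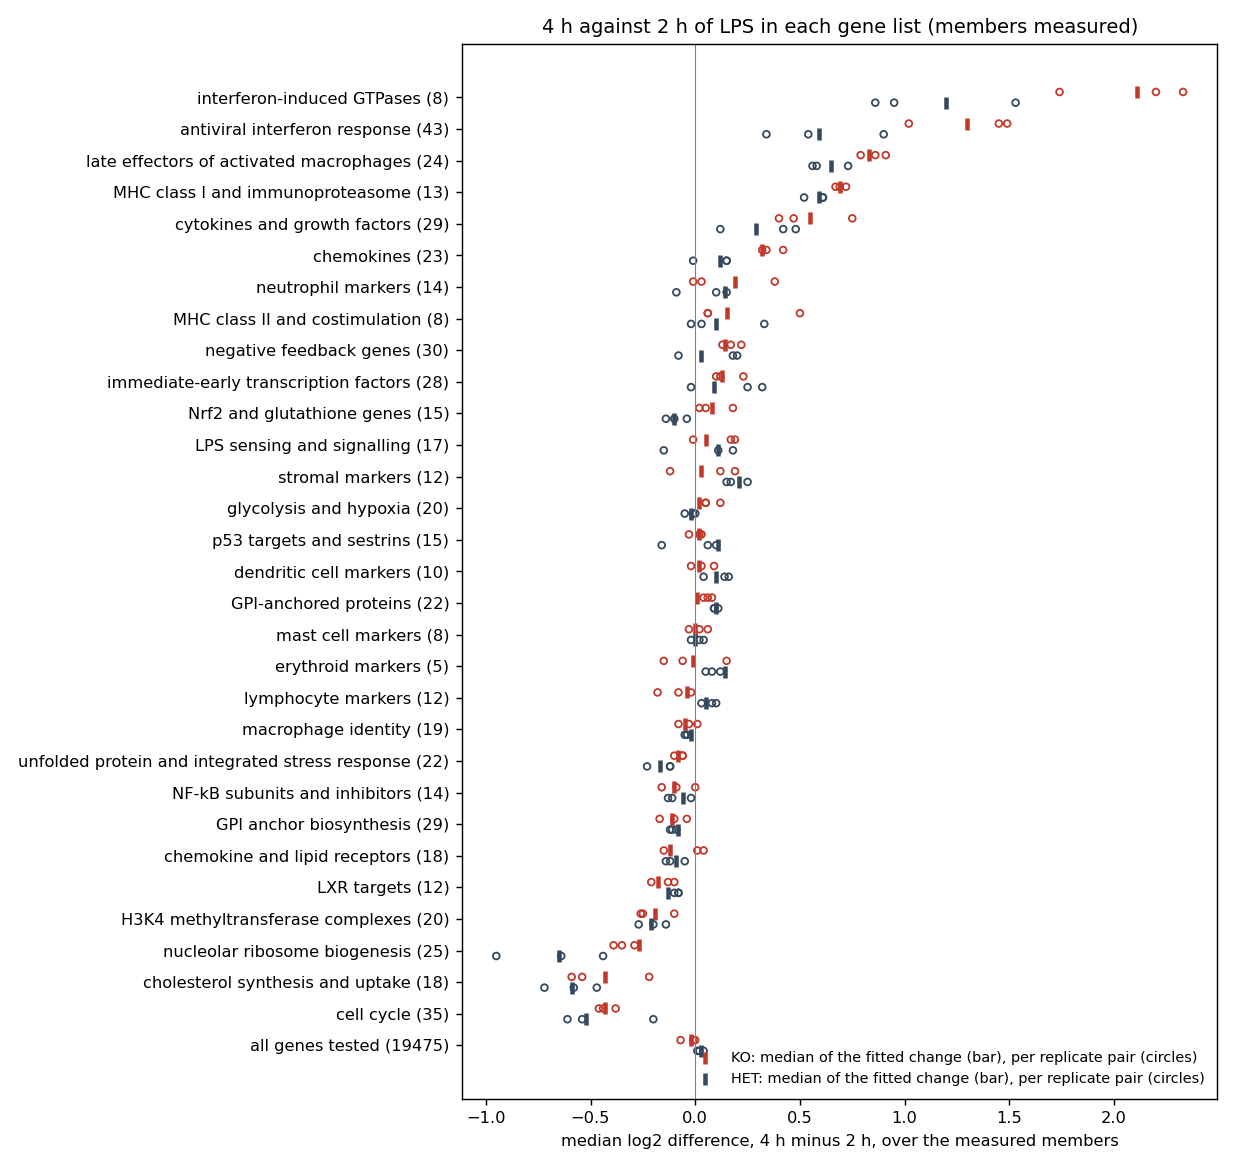
Median log2 difference, 4 h minus 2 h (horizontal axis), over the measured members of each gene list, with the number of members in brackets, in KO (red) and HET (blue). Bars are medians of the fitted change and circles the medians in each replicate pair. In KO the GTPase and interferon lists stand farthest right and above their HET medians, in HET the GTPase and late effector lists do, and ribosome biogenesis, cholesterol and cell cycle genes stand left of 0 in both genotypes.

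The fitted rise of the interferon genes was mostly larger in KO. The median change of the 43 antiviral genes was 1.30 in KO and 0.59 in HET, where 27 rose. It was larger in KO for 42 of 43, and for 37 the difference had an unadjusted p under 0.05, beside 3.81% of all genes. No member passed the adjustment over all genes (smallest limma adjusted p = 0.154), and 5 passed without HET replicate 2. These genes move together, so they are not independent of each other. Array means of the antiviral genes in HET were already 12.12 to 12.92 at 2 h, and 12.97 to 13.30 at 4 h (highest value on the arrays 14.92). Whether the top of the array's range limited the HET rises was not tested. The median level in KO minus HET was -0.33 at 4 h and -1.03 at 2 h. For the 8 GTPases it was -0.89 at 4 h and -1.66 at 2 h. Without HET replicate 1 these levels were -0.22 at 4 h and -0.88 at 2 h for the antiviral genes, and -0.60 at 4 h and -1.07 at 2 h for the GTPases. Array means were lower in KO before LPS too, although the ranges nearly met. Array means of the antiviral genes were 9.78 to 10.56 in untreated KO and 10.58 to 11.57 in untreated HET. For the GTPases they were 7.30 to 7.91 in untreated KO and 7.98 to 8.70 in untreated HET. Untreated levels were not computed without HET replicate 1. That replicate was the highest untreated HET array for Iigp1 (7.82, against 6.82 and 6.42) but not for Gbp7 (9.48, against 9.41 and 9.61). Gbp7 had the smallest p of the members: it rose by 2.41 in KO and by 0.96 in HET, a difference of 1.46 (95% interval 0.94 to 1.97, limma adjusted p = 0.113).

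Il6 rose by 2.98 in KO and by 0.91 in HET, where it had 13.42, 13.34 and 13.28 at 4 h, against 12.98, 11.59 and 12.74 at 2 h. The difference of 2.07 (95% interval 1.3 to 2.85) did not pass the adjustment (limma adjusted p = 0.124). It passed without HET replicate 2 (2.49, adjusted p = 0.00463) and with array quality weights (1.97, adjusted p = 0.0479). KO stood below HET by 0.86 at 4 h and by 2.93 at 2 h. Nos2 (0.86), Tlr3 (0.99) and Tnfsf10 (1.84) had differences of the same sign that did not pass (limma adjusted p = 0.337, 0.178 and 0.178).

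Ribosome biogenesis genes had a median change of -0.27 in KO and -0.65 in HET, where 21 of 25 fell. The change in KO lay above that in HET in all 25 genes, 16 of them at an unadjusted p under 0.05 and none after adjustment (smallest limma adjusted p = 0.154). The median KO minus HET level of these genes was 0.42 at 4 h and 0.03 at 2 h (0.25 and -0.03 without HET replicate 1). Gnl3 fell by 0.92 in KO and by 2.15 in HET (difference 1.23, limma adjusted p = 0.154). For the cell cycle list the medians were -0.43 in KO and -0.52 in HET, and for the cholesterol list -0.43 and -0.59. The median KO minus HET level of the cell cycle genes was 0.85 at both times. This rested on HET replicate 1, without which it was 0.18 at 4 h and 0.06 at 2 h.

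**Figure D5:**
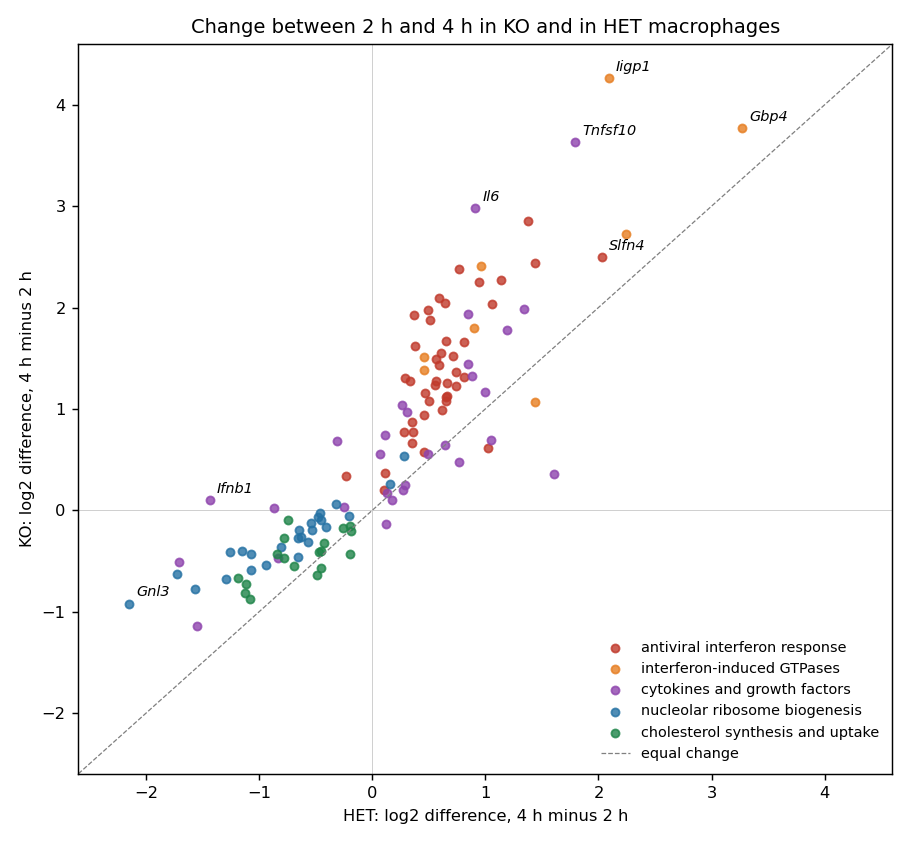
Log2 difference, 4 h minus 2 h, in KO (vertical axis) against that in HET (horizontal axis) for the members of 5 gene lists, 1 point per gene. The dashed line marks an equal change: most interferon and GTPase genes and all ribosome biogenesis genes lie above it, while Gbp4 lies close to it.

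The 2 genes whose change differed after adjustment rose less in KO. Angpt1, the vascular ligand angiopoietin 1, had 5.56, 5.30 and 5.35 in KO at 4 h, against 5.16, 5.25 and 5.17 in KO at 2 h (0.21, limma adjusted p = 0.333). In HET it had 6.67, 6.86 and 7.25 at 4 h, against 5.32, 5.17 and 5.30 at 2 h, a rise of 1.67 (limma adjusted p = 4.61e-06). The difference was -1.45 (SE 0.167, limma adjusted p = 0.015). Cysltr2, a receptor for cysteinyl leukotrienes, had 5.69, 5.28 and 5.79 in KO at 4 h, against 5.03, 4.69 and 4.83 in KO at 2 h, a rise of 0.74 (limma adjusted p = 0.000245). In HET it had 7.51, 7.19 and 7.41 at 4 h, against 5.76, 5.37 and 5.38 at 2 h, a rise of 1.87, and the difference was -1.13 (SE 0.136, limma adjusted p = 0.015). For both genes all KO values, and the HET values at 2 h, lay below the lower quartile of signals of the arrays (6.71 to 6.99). Neither was called when any KO replicate was left out. Next by p came Mfsd9, a transporter-like gene (-0.77), and Tbc1d2b, which fell by 0.69 in KO and by 1.53 in HET (0.84), both with a limma adjusted p of 0.113.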

How the data were processed

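RNA of bone marrow-derived macrophages was hybridised to 18 Affymetrix gene arrays, 3 per group. The authors deposited log2 signals, for which the submitters' processing notes name RMA and Partek 6.5. They were used without further scaling. Of 25344 probe sets, 21137 named 1 gene and were kept, 1530 named several and 2677 none. For 915 genes with several probe sets the one with the highest mean was used, which left 19475 genes. Of the kept probe sets, 84 name a gene that the RefSeq table does not hold. Arrays have no read depth, and their number limits the precision.

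A limma 3.58.1 model (R 4.3.3) was fitted to all 18 arrays, with replicate number within genotype as a block and the time effect separate for each genotype (8 residual degrees of freedom, prior 4.83). Contrasts were 4 h minus 2 h in KO, the same in HET, and their difference. The labels do not say that a number marks a culture. Deviations from the group mean correlated in all 3 pairs of same-numbered KO arrays at 2 h and 4 h (r 0.338 to 0.441 over genes). For other numbers r was -0.362 to 0.027. Deviations within a group cancel out, so positive values for same numbers make those for other numbers negative on average. The values for other numbers are thus no separate support. The pairing rests on the same-number correlations and on the rule of the comparison. Nothing states separate animals, so p-values measure the spread between these samples, which may be technical.

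Named genes were Kmt2b, Pigp, Cd14, Il6 and Ifnb1, the 10 largest called rises and falls in which all pairs agreed, up to 4 called and 2 uncalled members of largest change in each of 30 lists, and the 5 of smallest p for the difference. Of 605 listed genes 554 were measured. Members and lists were chosen with earlier results of these data known. Alternatives changed the block, arrays in the fit, scaling, dim-gene filter, probe sets, variance prior, weights and replicates. Figures were drawn with matplotlib 3.10.9.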

Additional observations from a re-analysis of the deposited data

Results flagged for a closer look

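Of the genes tested, 2 had a different change between 2 h and 4 h in the genotypes by the test of the difference itself. For Angpt1 the change in KO minus that in HET was -1.45, and for Cysltr2 it was -1.13. The change of Angpt1 was 0.21 in KO, which did not pass the test, and 1.67 in HET, and Cysltr2 rose by 0.74 in KO and by 1.87 in HET. KO minus HET at 4 h was -1.52 for Angpt1 and -1.79 for Cysltr2. All KO signals of both genes lay below the lower quartile of their arrays.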

How the results depend on the processing

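With the replicate block the KO comparison gave 2157 calls (963 higher, 1194 lower). With no replicate block there were 852 (523 and 329), all among the 2157. A block across genotypes gave 1044 (620 and 424). Calls rose to 3303 with the arrays of the contrast alone (2067 lower), 3527 with the KO arrays alone (2285 lower) and 4167 with array quality weights (1497 and 2670). A 2-fold minimum left 331 (276 and 55). Leaving out 1 replicate of either genotype gave 690 to 3539 calls, 520 to 1223 higher and 170 to 2316 lower. The lowest counts came without KO replicate 1, where fewer arrays are tested, and the highest without HET replicate 1. The other alternatives stayed within 1.5 times. For HET, with 3650 calls (1508 and 2142), there were 1594 with no replicate block (740 and 854), 1943 with HET arrays alone (892 and 1051), 2009 with a block across genotypes (943 and 1066) and 416 at 2-fold (242 and 174). Leaving out 1 replicate gave 2200 to 3870 (953 to 1397 higher and 1247 to 2473 lower). The difference between genotypes had 2 calls, both lower in KO. It had 1 with no replicate block (lower), 0 with the contrast's arrays alone, 4 after quantile normalization (1 higher) and 21 with array weights (10 higher, 11 lower). With dim genes left out it had 0, but that filter removed Angpt1 and Cysltr2 themselves, so they were not retested. Leaving out 1 replicate gave 0 to 34 calls (0 to 32 higher, 0 to 8 lower), with 34 without HET replicate 2, 11 without HET replicate 1 and 0 without any 1 KO replicate. Of the 94 named genes called in KO, 51 were called under each of up to 16 alternatives. None of the 154 named genes changed sign where it was called in the main fit or in the alternative. Uncalled genes could change sign, as Ifnb1 (-0.06 to 0.29) and Pigp (-0.13 to 0.07) did over the alternatives. The cause of these shifts was not tested.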
